A study of Mus musculus with 6 samples.

Results

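The FGF, IGF, PDGF and VEGF genes are 4 families of secreted growth factors with their receptors and binding proteins, and they were followed here in mouse back skin with and without ultraviolet B light (UVB). Members were chosen by name alone: every probe that was not a control and whose gene name began with Fgf or Fgfr and a digit, with Igf1, Igf2 or Igfbp and a digit, or with Pdgf or Vegf. That gave 80 probes of 55681 on the array. They stand for 53 genes on 18 chromosomes. The rule also takes in genes that only share a name, such as the IGF2 mRNA binding proteins, the antisense RNA of Igf2 and the Fgfr1op genes, and these are described apart. The skin came from male C57BL/6 mice aged 6 to 8 weeks, with 3 mice in each group, and all of them had their backs shaved. From 2 days after shaving, mice of the UVB group were anaesthetised and their backs irradiated with 180 mJ/cm2 per session, 3 times weekly over 2 weeks. Control mice were kept dark and received no UVB. The labels name no altered allele and no agent other than the anaesthesia of the UVB group. Anaesthesia is not stated for controls, so light and anaesthesia cannot be told apart. How long after the last session the skin was taken is not stated in the labels.

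Fibroblast growth factors bind 4 receptor tyrosine kinases together with heparan sulphate or klotho coreceptors. In skin, Fgf7, Fgf10 and Fgf22 act on the epithelial splice form of Fgfr2, Fgf5 is known for ending hair growth and Fgf18 for holding hair follicles at rest. Insulin-like growth factors signal through Igf1r, are cleared by Igf2r, and are held in tissue fluid by binding proteins that either store them or keep them from the receptor. Platelet-derived growth factors act on Pdgfra and Pdgfrb of fibroblasts and pericytes, with Pdgfa made largely by epithelium. Vegfa, made by keratinocytes, is the main growth factor of skin vessels. Receptors of all 4 families activate the RAS and ERK kinase cascade, which induces its own inhibitors, among them the Sprouty, Spred and Dusp proteins.

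Each mouse gave 1 array of 62976 spots with 1 colour. Of the 59305 spots outside the controls, 54.9% to 63.3% were well above background, no spot was saturated, and the number of arrays limits the precision. Values are log2 signals minus the 75th percentile of their own array (scaled log2 signal), so a level can be compared between mice but not between probes. In signal units this percentile ran from 363 to 519 over the controls and from 302 to 352 over the UVB arrays. The 18520 probes that were not well above background on any array stood a median of 0.54 higher in the UVB group on this scale, and the 21 such probes of the members a median of 0.54 higher, from -0.20 to 0.92. Keratins of the epidermis marked all arrays as skin, with all 5 epidermal markers tested. Markers of hair matrix and inner root sheath rose in 5 of 9 tested genes, and their summed level on the log2 scale was 4.23 to 4.42 in controls and 7.61 to 9.50 after UVB. In controls this sum was mainly Krt85 (mean 3.95), which changed by -0.49 without passing. Dermal fibroblast markers rose in 3 of 5 tested genes, with summed levels of 2.26 to 3.50 and 4.04 to 4.61. Macrophage markers fell in 2 of 3, from 4.17 to 4.30 down to 2.42 to 3.00. The macrophage sum was carried almost wholly by Csf1r, whose group means were 4.19 and 2.68. Mrc1 changed by -0.01, and Cd68 and Cd163 were not tested. Dermal papilla markers gave 2 rises and 1 fall in 6 tested genes (summed levels 2.70 to 2.91 and 3.26 to 3.48), and adipocyte markers 1 rise and 2 falls in 5 (0.81 to 1.72 and 2.68 to 4.84). These sums rose mainly with Notum (log2 fold change 0.89) and Fabp4 (4.80). The median log2 fold changes of the dermal papilla and adipocyte lists were -0.33 and -0.11. By limma, telogen bulge markers passed in 0 of 6 (1 at an unadjusted p under 0.05). In whole skin, fewer cells of a type and less RNA per cell cannot be told apart.

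Of the 53 genes, 37 could be tested (well above background on at least 3 of 6 arrays), and 8 passed at a limma adjusted p under 0.05: Fgf9, Fgf22, Igfbp5 and Igfbp2 rose, and Igfbp3, Igf2bp2, Fgfr2 and Vegfb fell. Those 8 are 21.6% of the tested members, beside 12.6% of all 24333 targets. By direction, 4 of 37 rose where 5.54% of all targets did, and 4 fell where 7.02% did. At an unadjusted p under 0.05, limma gave 10 higher and 8 lower members. The difference in share was not tested. The median log2 fold change, UVB over control, was -0.02 over tested members and -0.04 over all targets. In 18 of 37 genes (48.6%) the 3 exposed mice all lay on one side of the 3 controls, against 38.5% of all targets. At the level of probes, 10 of 53 tested passed, beside 11.2% of all probes: 5 were higher, where 5.08% of all probes were, and 5 lower, where 6.11% were.

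**Figure D1:**
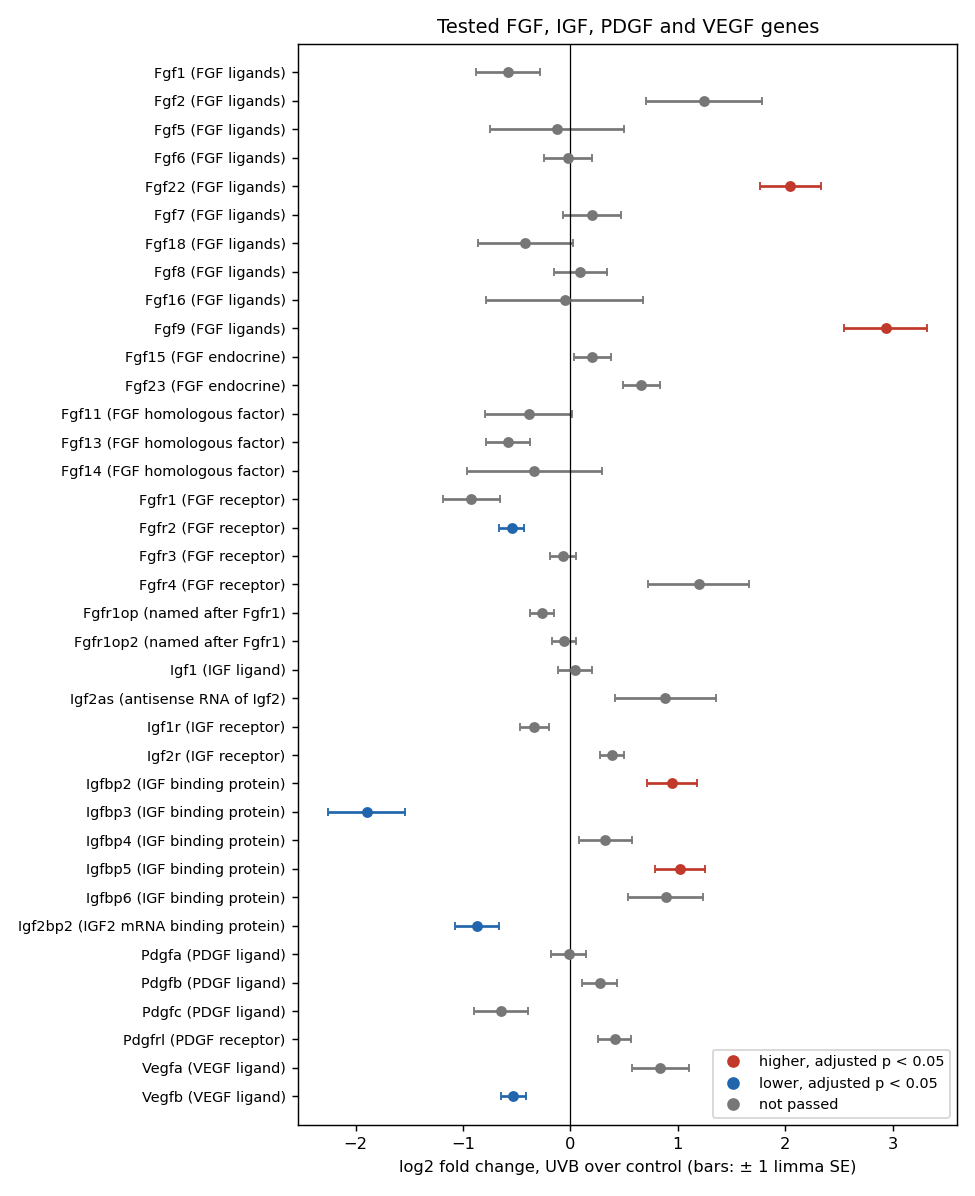
Log2 fold change of each tested gene, UVB over control, ordered by family and role, with bars of 1 limma standard error either way (3 mice per group). Fgf9 and Fgf22 lie farthest to the right at 2.93 and 2.05, and Igfbp3 farthest to the left at -1.90.

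The sequences at the starts of 4 members are shown first: the 3 that passed with the largest changes, Fgf9, Fgf22 and Igfbp3, and the FGF receptor that fell. Each is the 250 bases upstream of the annotated start, read 5′ to 3′ on the gene's strand, from RefSeq on GRCm38.p6, which listed 41 of the 53 members. Capitals mark matches, on either strand, to a GC box (GGGCGG), a hypoxia response core (ACGTG), a cyclic AMP response core (TGACGT), an AP-1 site (TGANTCA) or an ETS core (CCGGAA). The regions are Fgf9 at chr14:58072436-58072685 on the plus strand, Fgf22 at chr10:79754859-79755108 on the plus strand, Igfbp3 at chr11:7213924-7214173 on the minus strand and Fgfr2 at chr7:130266809-130267058 on the minus strand.
Fgf9: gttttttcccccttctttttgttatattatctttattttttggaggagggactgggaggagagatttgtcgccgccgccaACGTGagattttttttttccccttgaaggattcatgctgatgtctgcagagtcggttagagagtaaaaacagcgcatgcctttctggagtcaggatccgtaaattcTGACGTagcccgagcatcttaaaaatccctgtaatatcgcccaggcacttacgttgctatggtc
Fgf22: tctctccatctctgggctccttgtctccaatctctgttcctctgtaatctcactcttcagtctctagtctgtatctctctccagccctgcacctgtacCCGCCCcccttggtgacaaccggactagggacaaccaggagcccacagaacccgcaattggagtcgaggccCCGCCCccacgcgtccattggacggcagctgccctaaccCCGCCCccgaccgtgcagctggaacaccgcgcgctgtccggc
Igfbp3: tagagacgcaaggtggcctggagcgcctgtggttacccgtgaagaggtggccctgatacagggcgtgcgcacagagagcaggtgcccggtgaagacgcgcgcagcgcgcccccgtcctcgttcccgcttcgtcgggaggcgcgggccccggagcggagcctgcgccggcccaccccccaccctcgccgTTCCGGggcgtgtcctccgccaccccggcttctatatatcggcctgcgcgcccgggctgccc
Fgfr2: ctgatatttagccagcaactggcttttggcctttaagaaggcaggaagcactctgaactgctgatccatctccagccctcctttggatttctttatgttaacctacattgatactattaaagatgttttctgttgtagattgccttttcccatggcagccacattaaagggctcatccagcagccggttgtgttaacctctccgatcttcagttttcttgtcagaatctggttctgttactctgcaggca
The Fgf9 window held 1 ACGTG and 1 TGACGT, Fgf22 held 3 GC boxes and Igfbp3 held 1 ETS core. In the Fgfr2 window none of these letters occurred, which says nothing about any factor. Over 32851 such windows the GC box was found in 32.7%, ACGTG in 16.6%, TGACGT in 6.47%, TGANTCA in 6.75% and CCGGAA in 12%. ACGTG can overlap its own reverse complement in CACGTG, and each counts as 1 match. A match is a description of the letters only.

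Among the 12 tested FGF ligands, Fgf9 and Fgf22 rose and 0 fell by limma (0 also at an unadjusted p under 0.05). Over all targets 5.54% rose and 7.02% fell, so a lack of falls among so few genes is no result about the ligands. Fgf9, a growth factor that signals between epithelium and mesenchyme, was read by 1 probe at chr14:58728897-58728956 in mm9. Its scaled log2 signal was -4.23, -4.35 and -5.63 in the controls and -2.11, -1.70 and -1.59 in the exposed mice. All exposed mice lay above all controls, and control 3 was the lowest array and the one where the probe was not well above background. The log2 fold change was 2.93 ± 0.39 (limma SE; adjusted p = 0.0092; 95% interval 1.85 to 4.02; n = 3 per group). Fgf9 passed limma with any 1 array left out. With normexp background correction the change was 1.45, still past the test, so its size depends on how background is treated.

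Fgf22, an epithelial ligand of the Fgf7 group, was read by a pair of separate probes. The brighter one, at chr10:79221282-79221341 in mm9, stood at -1.75, -1.60 and -0.80 in controls and at 0.48, 0.56 and 0.96 after UVB. The groups were far apart, with control 3 the highest of the controls. The log2 fold change was 2.05 ± 0.28 (limma adjusted p = 0.0102; 95% interval 1.26 to 2.83), which is 4.13-fold. The other probe, at chr10:79219513-79219572, read -3.87, -2.81 and -1.90 against -0.27, -0.63 and -0.85, a change of 2.28 ± 0.48 (limma adjusted p over probes = 0.0341). Both probes passed with all arrays, and the call for the gene, from the brighter probe, held with any 1 array left out. The other probe missed the threshold without control replicate 2 and without any 1 of the UVB arrays (limma adjusted p over probes 0.0674 to 0.108).

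The other members of the Fgf7 group gave no call. Fgf7, the keratinocyte growth factor of dermal cells, lay near background, with scaled log2 signals of -5.01, -4.37 and -4.88 in controls and -4.13, -4.99 and -4.54 after UVB. Its groups overlapped, and the change of 0.20 ± 0.27 did not pass limma (adjusted p = 0.652). Fgf10 and Fgf3, also ligands of epithelial Fgfr2, were not well above background on any array. The difference between Fgf22 and Fgf7 in response was not tested.

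Ligands known for the hair cycle also failed the test. Fgf18 was level in controls, at 2.67, 2.67 and 2.51, and scattered after UVB, at 1.37, 2.00 and 3.22. Exposed mice 1 and 2 lay below every control and exposed mouse 3 above every control, which gave a change of -0.42 ± 0.44 (limma adjusted p = 0.564). Single mice decided this value: it was -0.93 without UVB replicate 3 (limma adjusted p = 0.0620) and -0.01 without UVB replicate 1 (limma adjusted p = 0.991). The second probe of Fgf18, which shares 26 bases with the first, gave -0.45, with -0.98 and -0.06 in the same fits, the former past the test. Fgf5 was near background, well above it on 2 of 3 control arrays and 1 of 3 UVB arrays, and its change of -0.13 ± 0.62 (limma adjusted p = 0.914) turned positive under normexp.

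Fgf2, a heparin-bound factor for fibroblasts and vessels, read -3.18, -4.29 and -5.31 in controls and -2.73, -3.53 and -2.77 after UVB. Only 2 of 3 control arrays were well above background for it. The control of highest signal lay inside the exposed range, and the change of 1.25 ± 0.54 did not pass limma (adjusted p = 0.174). Fgf1, its closest relative, stood at 0.43, 0.73 and 0.50 against -0.50, -0.22 and 0.63. Exposed mouse 3 lay among the controls, and Fgf1 did not pass (-0.58 ± 0.30, limma adjusted p = 0.235). Without that mouse it passed, with a change of -0.91. A dimmer second probe of Fgf1 gave -0.12 ± 0.35 with overlapping groups (limma adjusted p over probes = 0.853). Fgf23, an endocrine factor made mainly by bone, was higher in all 3 exposed mice (3.62, 3.04 and 3.17 against 2.64, 2.62 and 2.58) and missed the threshold at 0.66 ± 0.17 (limma adjusted p = 0.0558). It passed under 4 alternative settings. On none of the 6 arrays did a second Fgf23 probe read well above background, so this difference rests on 1 probe.

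The other tested ligands, Fgf6, Fgf8, Fgf15 and Fgf16, had log2 fold changes of -0.05 to 0.20 and did not pass. The homologous factors Fgf11, Fgf13 and Fgf14, which stay inside the cell and bind sodium channels, had changes of -0.58 to -0.34 and did not pass either. Fgf13 did separate the groups, though narrowly, at -2.33, -2.98 and -2.62 against -3.23, -3.01 and -3.43. Under normexp its change was -0.06. Fgf3, Fgf4, Fgf10, Fgf12, Fgf17, Fgf20 and Fgf21 were not well above background on any array and were not tested.

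Of the 4 FGF receptors, Fgfr2 fell. Fgfr2, the receptor of Fgf7, Fgf10 and Fgf22 on keratinocytes, stood at 0.08, 0.30 and 0.21 in controls and at -0.37, -0.30 and -0.37 after UVB. Exposed mice were all lower than controls and tightly grouped, and the change was -0.55 ± 0.12 (limma adjusted p = 0.0325; 1.46-fold lower). A dimmer probe gave -0.78 ± 0.14 (limma adjusted p over probes = 0.0217), from -1.17, -0.90 and -0.80 in controls to -1.74, -1.72 and -1.76. It shares 42 bases with the first, so the readings are not independent. The call for the gene did not hold with any 1 array left out (limma adjusted p 0.0535 to 0.132), while the change stayed between -0.60 and -0.49. Whether these probes read the epithelial or the mesenchymal splice form was not examined.

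Fgfr1, the receptor best known from dermal cells, was lower in every exposed mouse without passing. It read 3.55, 3.33 and 3.36 in controls and 2.43, 2.01 and 3.03 after UVB, a change of -0.92 ± 0.26 (limma adjusted p = 0.069). It passed without UVB replicate 3 (limma adjusted p = 0.0212, change -1.19) and under 4 other settings. Its probes differed: a second gave -0.88 ± 0.27, and the third, at chr8:26685820-26685879 in mm9, gave 0.03 ± 0.21 with overlapping groups. Which transcripts each probe reads was not examined.

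Fgfr3, a receptor of the keratinocyte layers, differed little, at 4.52, 4.60 and 4.75 in controls and 4.49, 4.54 and 4.64 after UVB (-0.07 ± 0.12, limma adjusted p = 0.740, 95% interval -0.40 to 0.27). Its second probe gave -0.39 ± 0.15 and did not pass. Fgfr4 had probes of opposite sign. The brighter gave -1.02, -2.30 and -2.91 against -0.88, -1.12 and -0.64, a change of 1.19 ± 0.47 (limma adjusted p = 0.141), and the other -0.64 ± 0.34. Here control 1 decided the outcome, since the brighter probe passed without it (change 1.72, limma adjusted p = 0.0286).

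**Figure D2:**
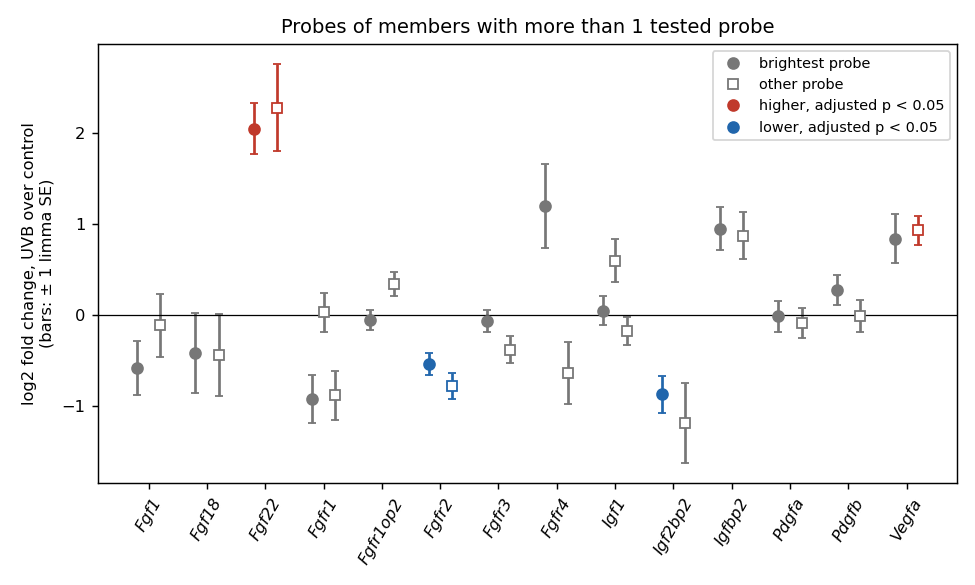
Log2 fold change, UVB over control, of each tested probe of the 14 members that had more than 1, with bars of 1 limma standard error either way (3 mice per group); filled circles are the brightest probe of a gene. The Fgf22 pair and the overlapping Fgfr2 pair passed together, while 5 members (Fgfr1, Fgfr1op2, Fgfr4, Igf1 and Pdgfb) had probes on both sides of 0.

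In the IGF family the tested ligand and the receptors did not pass, and 3 of 5 tested binding proteins did. Over all targets 12.6% passed, and this difference in share was not tested. Igf1, the ligand made by dermal cells and known as a hair growth factor, read 0.53, 0.26 and 0.43 in controls and 0.28, 0.37 and 0.71 after UVB. The groups overlapped and the change was 0.05 ± 0.16 (limma adjusted p = 0.873, 95% interval -0.39 to 0.48). Dimmer probes of Igf1 gave 0.59 ± 0.23 and -0.18 ± 0.16, neither past the test. Igf2, the fetal ligand, was well above background on 1 array of each group and was not tested. Its antisense RNA, listed as Igf2as, had a change of 0.88 ± 0.47 that did not pass (limma adjusted p = 0.252), with 2 of 3 control arrays well above background.

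Igf1r, the signalling receptor, was lower in the 3 exposed mice (1.66, 1.71 and 1.55 against 1.14, 1.29 and 1.48) and did not pass (-0.34 ± 0.13, limma adjusted p = 0.146). Igf2r, the clearance receptor and mannose 6-phosphate carrier, was higher in them (0.47, 0.51 and 0.63 against 0.85, 0.96 and 0.97) and missed the threshold at 0.39 ± 0.11 (limma adjusted p = 0.0732). It passed under quantile scaling and under eBayes with trend and robust.

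Igfbp3 had the largest fall of the 37 tested members. This binding protein, which in serum carries most circulating IGF and in skin is made in the basal epidermis and dermis, read 1.76, 1.73 and 1.68 in controls. After UVB it read -0.40, 0.66 and -0.78. Controls were level, while exposed mouse 2 kept a higher level than the other exposed mice, and the groups did not overlap. The change was -1.90 ± 0.36 (limma adjusted p = 0.024; 3.72-fold lower; 95% interval -2.89 to -0.90). Of 6 fits with 1 array left out, 2 passed, those without UVB replicate 2 (-2.31, limma adjusted p = 0.0100) and without UVB replicate 3 (-1.59, limma adjusted p = 0.0433).

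Igfbp5 and Igfbp2 moved the other way. Igfbp5, a matrix-bound protein of dermal cells and hair follicles, read -1.97, -1.70 and -2.55 in controls and -1.20, -0.91 and -1.05 after UVB. All exposed mice were higher, with a change of 1.02 ± 0.23 (limma adjusted p = 0.0397; 2.03-fold). It passed in no fit with 1 array left out (limma adjusted p 0.0558 to 0.0957) and missed under median scaling (0.92). Dermal fibroblast and hair matrix markers had higher summed levels in the same mice. The dermal papilla sum was also higher, but its list was mixed, with a median log2 fold change of -0.33. The part of these cell types in this result was not tested.

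Igfbp2, which lies next to Igfbp5 on chromosome 1, was level in controls (1.25, 1.19 and 1.24) and stood at 2.50, 2.37 and 1.64 after UVB. Exposed mouse 3 was the lowest of its group and still above every control. The change of 0.95 ± 0.24 was at the threshold (limma adjusted p = 0.0497), and over probes rather than genes the same probe missed it at 0.0526. A second probe gave 0.87 ± 0.25 and did not pass. With 1 array left out Igfbp2 passed once, without UVB replicate 3 (1.21, limma adjusted p = 0.00857).

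Of the remaining binding proteins, Igfbp6, which prefers IGF2, was at -0.69, 0.22 and -0.77 in controls and at 0.50, 0.95 and -0.02 after UVB, overlapping, with a change of 0.89 ± 0.35 (limma adjusted p = 0.144). Igfbp4, an inhibitor that is cleaved by Pappa, changed by 0.32 ± 0.25 and did not pass. Igfbp7 was well above background on none of the 6 arrays and Igfbp1 only on 2 control arrays, so neither was tested. The 5 tested binding proteins thus split into 2 that rose, 1 that fell and 2 that did not pass. Over all targets 5.54% rose and 7.02% fell.

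Igf2bp2 is an mRNA binding protein that shares only the prefix. It was dim, at -2.94, -2.85 and -3.52 in controls and -4.11, -3.96 and -3.86 after UVB, a change of -0.87 ± 0.20 (limma adjusted p = 0.0411) with no overlap. The call held in 5 of 10 alternative settings. It ended under normexp, where the change was -0.07, and with no filter, probe means, eBayes trend and robust, and the replicate block (limma adjusted p of 0.0612 to 0.686 over these). With 1 array left out it held 1 time, without control replicate 3. Its second probe gave -1.19 ± 0.44 and did not pass. Igf2bp1 and Igf2bp3 were not well above background on any array. The Fgfr1op genes, of the centrosome and cytoskeleton, did not pass: Fgfr1op changed by -0.27 ± 0.11, and probes of Fgfr1op2 gave -0.06 and 0.34.

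Of the PDGF genes, 0 of 4 tested passed limma (2 at an unadjusted p under 0.05). Pdgfa, the epidermal ligand of Pdgfra, read 3.71, 4.01 and 3.51 in controls and 3.85, 3.58 and 3.76 after UVB, with mixed groups and a change of -0.02 ± 0.17 (limma adjusted p = 0.959, 95% interval -0.48 to 0.44). Pdgfb, the ligand for pericytes, changed by 0.27 ± 0.16 on its brighter probe and -0.02 ± 0.17 on the other. Pdgfc, a ligand that needs cleavage, was lower in all 3 exposed mice (-0.47, -0.43 and -0.31 against -1.57, -0.97 and -0.60), and its change of -0.65 ± 0.25 did not pass (limma adjusted p = 0.138). Pdgfrl, a receptor-like protein, was higher in all 3 (0.41 ± 0.16, limma adjusted p = 0.134).

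The PDGF receptors themselves were dim. Pdgfra, also a fibroblast marker, was well above background on 1 control array and Pdgfrb, of pericytes, on 1 UVB array, and neither was tested. Pdgfd was well above background on none of the 6 arrays. Pericyte and smooth muscle markers passed in 0 of 3 tested genes by limma (3 at an unadjusted p under 0.05), with summed levels of 1.32 to 1.65 in controls and 1.24 to 2.09 after UVB.

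Among the VEGF genes Vegfb fell and Vegfa was higher in every exposed mouse. Vegfb, a ligand of Flt1 tied to lipid uptake and vessel survival more than to sprouting, read -0.04, 0.01 and -0.05 in controls and -0.46, -0.67 and -0.55 after UVB. Spread within each group was small beside the gap, and the change was -0.53 ± 0.11 (limma adjusted p = 0.0338; 1.45-fold lower). It passed in no fit with 1 array left out (limma adjusted p 0.0740 to 0.132), with changes of -0.58 to -0.47.

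Vegfa was represented by its brightest probe, at chr17:46154387-46154446 in mm9, which read 0.72, 1.12 and 0.84 in controls and 2.24, 1.70 and 1.26 after UVB. Each exposed mouse lay above the controls, exposed mouse 3 by little, and the change of 0.84 ± 0.27 did not pass (limma adjusted p = 0.0889). The other probe, at chr17:46162376-46162435, was tighter (-0.65, -0.34 and -0.72 against 0.54, 0.27 and 0.26) and passed among probes, at 0.93 ± 0.16 (limma adjusted p over probes = 0.0192). With the mean of both probes the gene passed at 0.88 (limma adjusted p = 0.0371), and it also passed without UVB replicate 3 (1.07, limma adjusted p = 0.0478). Vegfc, of lymphatic vessels, was well above background on 2 UVB arrays and no control array and was not tested.

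**Figure D3:**
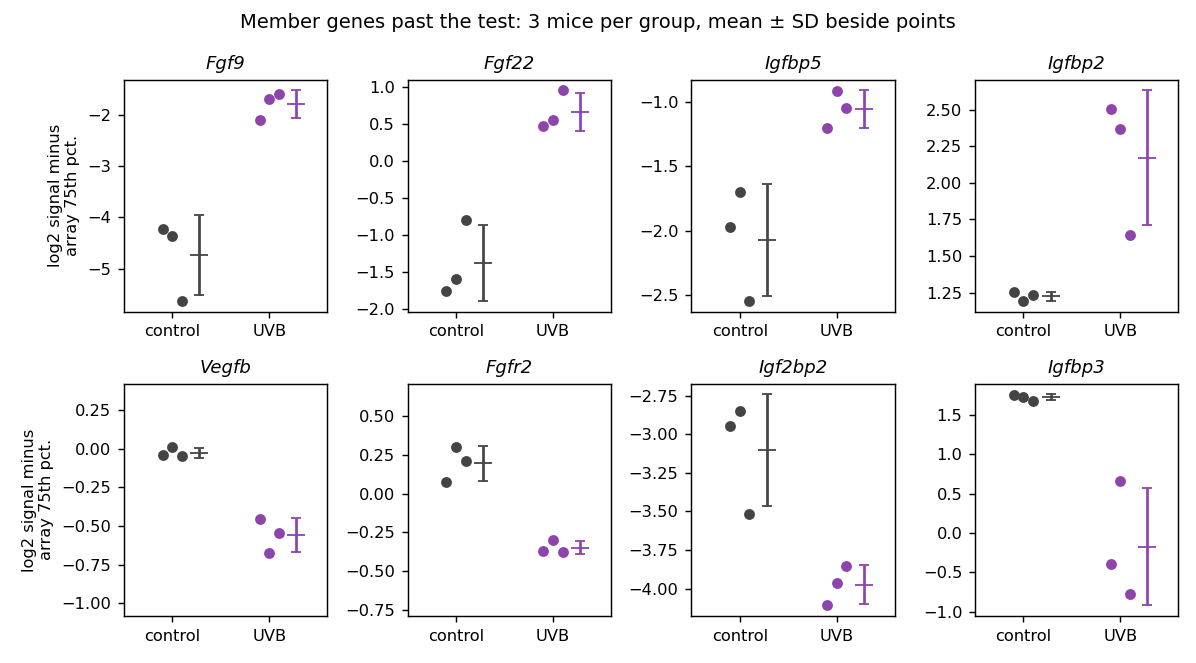
Scaled log2 signal (log2 signal minus the array's 75th percentile) of the 8 genes that passed, 1 point per mouse, with mean ± SD (3 mice per group) and a separate vertical scale per gene. The groups overlap in none of them; Igfbp3 was scattered after UVB (-0.40, 0.66 and -0.78) and level in controls.

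**Figure D4:**
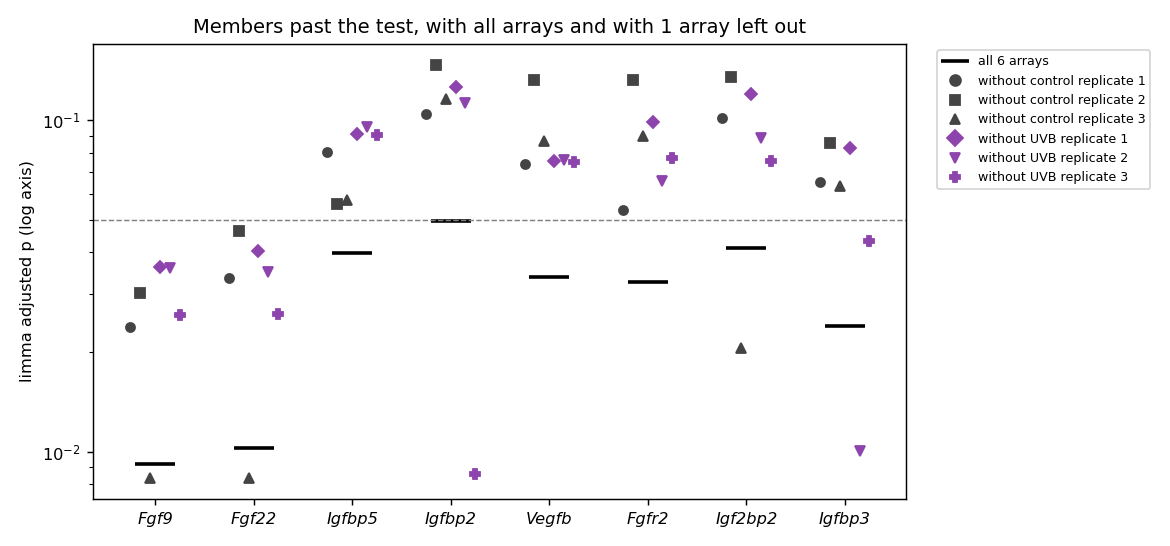
Limma adjusted p (log axis) of the 8 genes that passed, with all arrays (black bar) and with each of the 6 arrays left out in turn; the dashed line marks 0.05. Fgf9 and Fgf22 stayed under the line 6 times of 6, Igfbp3 2 times, Igfbp2 and Igf2bp2 1 time each, and Igfbp5, Fgfr2 and Vegfb not at all.

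Beyond the named families, 61 partner genes of the same pathways were read, of which 49 were tested. Of these, 3 rose where 5.54% of all targets did, and 7 fell where 7.02% did. The difference in share was not tested for partners. Their median log2 fold change was -0.20, against -0.04 over all targets. Receptors and coreceptors for VEGF passed in 0 of 3 tested by limma (0 also unadjusted): Kdr, the main endothelial receptor, changed by 0.32 ± 0.14 and Flt1, the receptor of Vegfb, by 1.01 ± 0.66 with one exposed mouse below the controls. The change of Kdr ran from 0.22 to 0.78 over 10 alternative settings and passed in 0 of them. Nrp2 changed by -0.39 ± 0.47, and Flt4 and Nrp1 were not tested. The further ligands Pgf (0.39 ± 0.28) and Figf, now Vegfd (-0.04 ± 0.15), did not pass.

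Among regulators and targets of VEGF signalling, 3 of 6 tested rose, where 5.54% of all targets did. Epas1, the oxygen-sensitive factor HIF-2 alpha, went from 2.21, 2.71 and 3.10 in controls to 4.75, 4.68 and 4.51, a change of 1.97 ± 0.24 (limma adjusted p = 0.00693). Its relative Hif1a changed by -0.03 ± 0.16 and did not pass. Angpt2, which loosens vessels, rose by 1.07 ± 0.22 (limma adjusted p = 0.0283) and Adamts1, a protease that binds VEGF, by 0.92 ± 0.12 (limma adjusted p = 0.0092). Epas1 and Adamts1 passed with any 1 array left out and Angpt2 in 2 of 6 such fits. Of the blood endothelial markers, 0 of 5 passed limma (0 also unadjusted), and Cdh5, Emcn, Tek and Tie1 were not tested. The summed level was 3.24 to 3.47 in controls and 3.62 to 3.90 after UVB. This sum was carried almost wholly by Kdr, whose group means were 3.24 and 3.57, so it is close to a reading of 1 gene. The median log2 fold change of the list was 0.28. The part of vessel content in the rises of Epas1, Angpt2 and Adamts1 was not tested.

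The 7 partners that fell were all feedback inhibitors or transcriptional targets of ERK, a list of 14 genes of which 11 were tested. Over all targets 7.02% fell. The list was chosen with earlier results of these data known. By limma 0 of the 11 rose (0 also at an unadjusted p under 0.05), 9 had negative changes, and their median was -0.59. Etv5 and Etv4, ETS factors induced by FGF signalling, fell in every exposed mouse. Etv5 was at 3.30, 3.30 and 3.27 in controls and 1.31, 1.35 and 1.82 after UVB (-1.80 ± 0.16, limma adjusted p = 0.00369). Etv4 was at 3.69, 3.54 and 3.40 against 1.75, 1.87 and 2.11 (-1.63 ± 0.15, limma adjusted p = 0.00369). Exposed mouse 3 was the highest of its group for both, and no group overlapped.

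Among the phosphatases, Dusp6 and Dusp4 fell. Dusp6, a cytoplasmic ERK phosphatase and a common readout of FGF signalling, went from 3.95, 3.66 and 4.46 to 2.45, 2.63 and 3.06 (-1.31 ± 0.26, limma adjusted p = 0.0263). Dusp4, its nuclear relative, went from -2.60, -1.94 and -2.38 to -4.39, -4.24 and -4.71 (-2.14 ± 0.22, limma adjusted p = 0.0045). Dusp4 was well above background on 1 UVB array only, and under normexp its fall was -0.63, still past the test. Dusp5 changed by 0.10 ± 0.24 and did not pass.

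Of the Sprouty and Spred inhibitors, Spred2, Spry1 and Spred1 fell. Spred2 was at -0.29, -0.07 and 0.01 in controls and between -1.08 and -0.99 in the 3 exposed mice (-0.90 ± 0.13, limma adjusted p = 0.0107). Spry1 changed by -0.59 ± 0.14 (limma adjusted p = 0.0396) and Spred1 by -0.54 ± 0.11 (limma adjusted p = 0.0271). Spry2 (-0.33 ± 0.25), Il17rd (-0.37 ± 0.20) and Etv1 (0.39 ± 0.25) did not pass, and Spry3, Spry4 and Spred3 were not tested. With 1 array left out, 4 to 6 of the 11 still fell: Etv4, Etv5 and Dusp4 passed every time, Spred2 in 5 of 6, Dusp6 in 2, Spry1 in 1 and Spred1 in none. Other receptor kinases, such as that for EGF, feed the same genes. The summed macrophage markers, almost wholly Csf1r, and the summed hair matrix markers moved in the same mice. Their part in these changes was not tested.

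**Figure D5:**
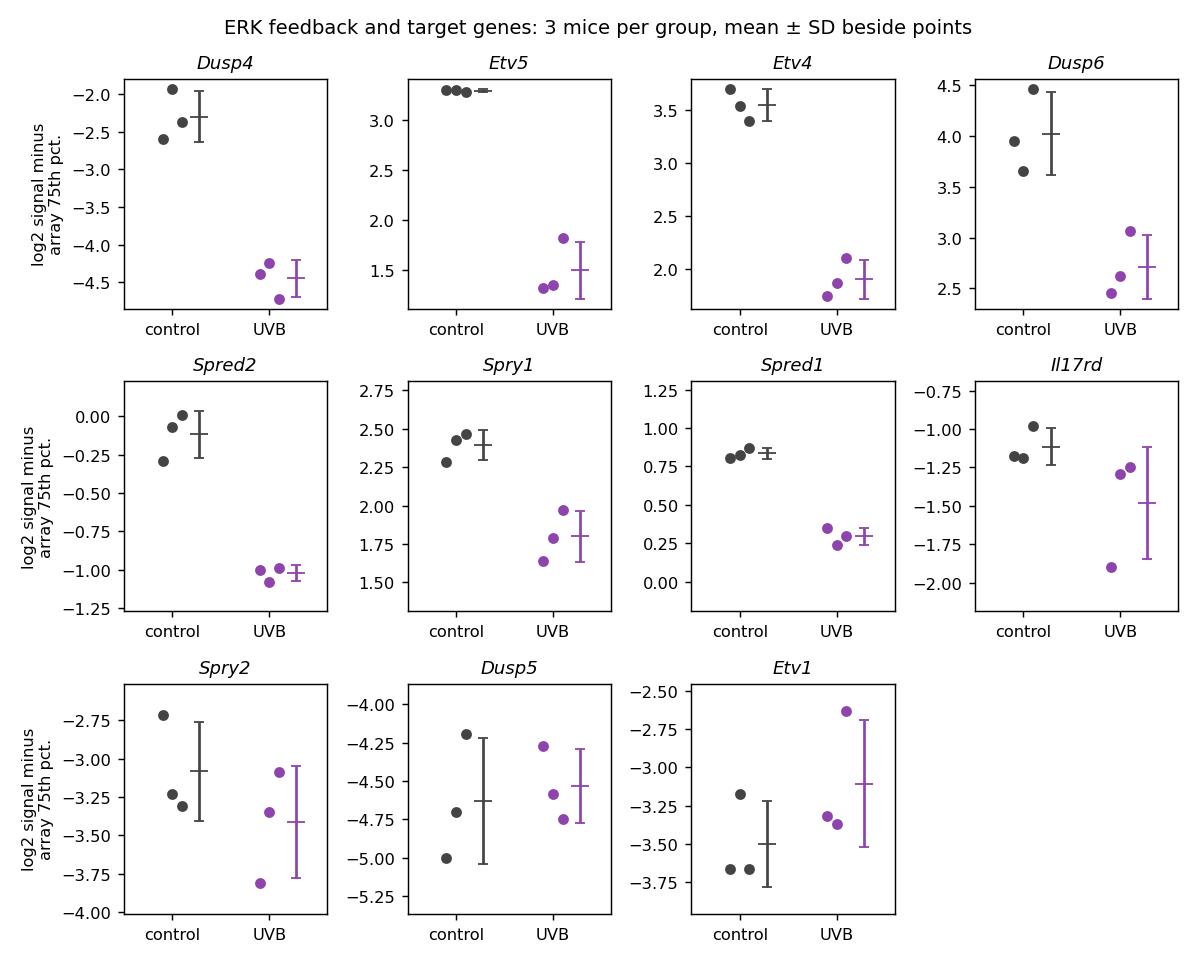
Scaled log2 signal (log2 signal minus the array's 75th percentile) of the 11 tested ERK feedback and target genes, 1 point per mouse, with mean ± SD (3 mice per group) and a separate vertical scale per gene. Etv5 and Etv4 lay near 3.29 and 3.54 in controls and near 1.49 and 1.91 after UVB, while Dusp5 and Spry2 overlapped.

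In the other partner lists limma made 0 calls. Of the adaptors that link FGF receptors to RAS, 0 of 7 passed by limma (0 also unadjusted), with a median of -0.22. Among coreceptors, decoys and carriers of FGF, 0 of 7 passed limma. The 2 that did so unadjusted were Fgfbp1, an FGF carrier of keratinocytes (-0.61 ± 0.15, limma adjusted p = 0.0516), and Flrt3, a membrane partner of FGF receptors (0.68 ± 0.18, limma adjusted p = 0.0546), each without overlap of the groups. Fgfrl1, a receptor without a kinase, changed by -0.21 ± 0.22. For IGF, 0 of 4 carriers and processing enzymes passed limma (2 unadjusted), among them Pappa (-0.35 ± 0.31), and 0 of 6 receptor relatives and substrates did (1 unadjusted), among them Irs1 (0.04 ± 0.15), Irs2 (-0.14 ± 0.17) and Insr (-0.02 ± 0.12). Enzymes that process PDGF passed limma in 0 of 3 (0 also unadjusted).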

How the data were processed

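RNA of 6 mice, from 0.2 µg each, was labelled with Cy3. The authors deposited scanner files, 1 per array, and a table of log2 values that served as an alternative; no label or header says how that table was made. Per the file headers, the intensity of each spot came from Agilent Feature Extraction 10.7.1.1 without scaling between arrays. Here log2 of the processed intensity minus each array's 75th percentile was taken, control and outlier spots were left out and spots of a probe averaged. Probes well above background on at least 3 of 6 arrays were tested, and the brightest tested probe stood for a gene, giving 24333 targets. Groups were compared in R 4.3.3 by limma 3.58.1, a linear fit with moderated variances. The fit was also run on simulated normal data, where limits were set only on the sign of large changes and on the mean error. Scaling and the filter were not simulated. In the comparison of groups, two-sided p-values were adjusted by Benjamini and Hochberg over all targets or all 33724 probes, with a threshold of 0.05. The p-values measure the spread between mice. The 95% intervals combine the moderated standard error with the residual degrees of freedom of the 6 arrays alone. They are therefore wider than intervals that match the limma p-values. Shared replicate numbers did not pair the mice (correlations of -0.11, -0.26 and -0.08), and 1 slide and 1 scan time held all arrays.

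Genes named are members past the test, members with probes of both signs, and a list of ligands, receptors, binding proteins and partners. Fgf1, Fgf23, Fgf13, Pdgfrl, Igfbp1, Fgfbp1, Flrt3, Hif1a, Il17rd, Etv1 and Dusp5 were named after their values were seen. Members and lists were chosen with earlier results of these data known. Alternatives were quantile or median scaling, normexp (offset 50), other filters, the deposited log2 table, averaging a gene's probes, eBayes settings trend and robust, a replicate block and leaving out each array.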

Additional observations from a re-analysis of the deposited data

How the results depend on the processing

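Main counts were 4 members up and 4 down, 5 member probes each way, 3 partners up and 7 down, and 1349 targets up and 1708 down. Median scaling shifted all targets by -0.10 and normexp by 0.12 on the log2 scale. Under median scaling 2 members rose. Under normexp 11 member probes and 2547 targets rose. With no filter on dim probes 3 member probes rose, and 1 member, 2 member probes and 1062 targets fell. With eBayes trend and robust 7 members and 10 member probes rose. All 8 members were called again under quantile scaling, the deposited table and the brighter-probe filter, 7 under normexp and 6 under median scaling and probe means. Leaving out 1 array gave 2 to 4 members, 2 to 5 member probes, 2 to 3 partners and 472 to 955 targets up, and 0 to 3 members, 0 to 5 member probes, 4 to 7 partners and 393 to 1064 targets down. The 2 members up by every such fit were Fgf9 and Fgf22. With no filter, where more targets enter the adjustment, Fgf9, Fgf22 and Igfbp3 remained called. The causes of the other shifts were not tested.

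With the replicate block, which the mice do not bear out, 2 members, 1 member probe, 1 partner and 476 targets rose, and 0 members, 0 member probes, 4 partners and 306 targets fell.

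Over all tested members and the named partners, signs turned only in changes that had not passed. By quantile scaling these were Fgf6 (0.00296), Fgf8 (-0.00657), Fgfr1op2 (0.0408), Hif1a (0.0243), Pdgfa (0.0609) and Vegfd (0.0330), by median scaling Dusp5 (-0.00576), Fgf8 (-0.00856), Igf1 (-0.0565) and Irs1 (-0.0635), and by normexp Fgf11 (0.0551), Fgf16 (0.251), Fgf5 (0.340), Insr (0.0420), Irs1 (-0.0168), Pappa (0.00862) and Spry2 (0.0812). By the deposited table they were Fgf8 (-0.00541), Fgfr1op2 (0.0142), Hif1a (0.0174), Pdgfa (0.0428) and Vegfd (0.00754), and by probe means Fgfr1op2 (0.141) and Hif1a (0.0405). With 1 array left out the ranges crossed 0 for Dusp5 (-0.0890 to 0.315), Fgf11 (-0.681 to 0.0960), Fgf14 (-0.851 to 0.229), Fgf16 (-0.605 to 0.700), Fgf5 (-0.584 to 0.473), Fgf6 (-0.186 to 0.189), Fgf7 (-0.00977 to 0.422), Fgf8 (-0.150 to 0.304), Hif1a (-0.168 to 0.0382), Igf1 (-0.0811 to 0.129), Insr (-0.0834 to 0.0346), Irs1 (-0.0527 to 0.129), Nrp2 (-0.686 to 0.0899), Pdgfa (-0.132 to 0.115) and Vegfd (-0.147 to 0.0511). Signal over background limits Fgf9, Fgf2, Fgf5, Fgf7, Fgf13, Fgf16, Igf2as, Igf2bp2, Dusp4, Dusp5 and the 16 untested members.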
